A study of Mus musculus with 2 samples.

Results

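The genes described here are 42 genes of the p53 response and of the apoptosis machinery, out of 26440 genes in the tables. They were taken by symbol: Trp53 with 23 of its target genes, and 18 genes of the BCL2 family, the caspases and the proteins that hold caspases in check. All 42 were found, each on 1 RefSeq accession. Livers were taken from BALB/c mice 11 days after birth, and 1 library was made for the wild type and 1 for mice with a liver-specific SRSF2-/- genotype (the knockout library). SRSF2 belongs to the serine/arginine-rich proteins that guide the splicing of messenger RNA precursors. The sources used here do not give the promoter or transgene that drove the deletion, the liver cells it reached or the number of animals behind a library. With 1 library per genotype there is no spread between animals, no test was possible, and each value describes these 2 libraries.

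p53, encoded by Trp53, is a transcription factor that is held low by the ubiquitin ligase MDM2 and accumulates after DNA damage and other stress. It then raises genes that stop the cell cycle, genes that repair DNA and genes that start cell death, and it raises Mdm2, which closes a feedback loop. Death through mitochondria is set by the BCL2 family: BH3-only proteins relieve or activate the pore formers BAX and BAK, survival proteins such as BCL-XL and MCL1 hold them back, and the cytochrome c that is released lets APAF1 activate caspase-9. Much of the control of p53 itself acts on the protein, which RNA does not measure.

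p53 binds DNA as a tetramer at pairs of a short palindromic element, the p53 half-site. The element of 10 bases was searched, with no mismatch, in the RefSeq promoter windows of build GRCm38.p6, which reach from 250 bases before to 50 bases after a start site. It reads the same on both strands, so 1 scan covers both. Of all 32851 windows 8.36% held it, and of all 27025 genes with a window 9.55% held it in at least 1. Windows were listed for 33 of the 42 genes. The element was present for 9 of 16 p53 list genes (56.2%) and 2 of 17 machinery genes (11.8%). Genes enter p53 target lists in part because p53 binds near them, so this share is a property of the list and not independent evidence about these livers. A stricter search for a full site, which is 2 elements with a spacer of up to 13 bases and at most 1 mismatch in all, found 0.718% of all genes and 3 members: Cdkn1a with no mismatch, and Ccng1 and Gtse1 with 1. The Cdkn1a stretch belongs to 1 of its 2 listed start sites, and the Birc2 element and nearly all of the Gtse1 site lie just after the start. A match describes letters only and does not show that p53 was bound. Among p53 list genes with a window, Phlda3, Bbc3, Btg2, Plk2, Eda2r, Ercc5 and Fas held no element. The stretches that hold the element are shown because the levels of their genes are compared below, with the element in capitals. For a full site the capitals mark the pair with the fewest mismatches. In the Cdkn1a stretch the second marked element is also followed directly by 10 bases with 1 mismatch, left in lower case.
Cdkn1a, chr17:29090881-29090962, plus strand: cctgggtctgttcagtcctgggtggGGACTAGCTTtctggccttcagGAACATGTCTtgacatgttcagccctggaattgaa
Ccng1, chr11:40755437-40755506, minus strand: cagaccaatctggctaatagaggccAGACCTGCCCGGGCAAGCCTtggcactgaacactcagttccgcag
Gtse1, chr15:85859920-85859964, plus strand: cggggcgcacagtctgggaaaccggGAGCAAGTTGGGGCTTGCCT
Mdm2, chr10:117710910-117710969, minus strand: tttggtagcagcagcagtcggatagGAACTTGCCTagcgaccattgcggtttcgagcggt
Bax, chr7:45467065-45467124, minus strand: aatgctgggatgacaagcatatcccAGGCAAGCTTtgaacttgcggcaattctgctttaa
Aen, chr7:78895912-78895971, plus strand: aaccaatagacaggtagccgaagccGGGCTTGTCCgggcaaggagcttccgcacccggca
Polk, chr13:96519384-96519437, minus strand: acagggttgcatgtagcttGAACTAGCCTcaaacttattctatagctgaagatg
Sesn1, chr10:41887241-41887300, plus strand: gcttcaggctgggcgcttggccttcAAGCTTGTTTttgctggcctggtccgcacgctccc
Trp53, chr11:69580259-69580318, plus strand: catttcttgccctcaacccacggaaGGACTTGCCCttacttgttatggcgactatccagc
Bmf, chr2:118544766-118544825, minus strand: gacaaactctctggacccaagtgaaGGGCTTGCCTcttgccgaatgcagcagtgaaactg
Birc2, chr9:7836787-7836821, minus strand: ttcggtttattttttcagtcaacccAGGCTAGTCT

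Levels are given as FPKM, the authors' count of fragments scaled to transcript length and library size, and a ratio is the knockout FPKM over the wild-type FPKM. The interval in brackets after a ratio is the exact 95% Clopper-Pearson interval of the read ratio, which covers counting error only. A gene is called at least 2-fold higher or lower on the log2(FPKM + 1) scale, where the added 1 shrinks the change of genes near or under 1 FPKM. Reads on transcripts numbered 22407743 for the wild type and 22111605 for the knockout. Srsf2 stood at 27.9 FPKM in wild-type and 11.8 FPKM in knockout liver, a ratio of 0.421 (0.388 to 0.457). The libraries differed as a whole: the 20 most abundant genes took 37.5% of wild-type and 21.5% of knockout reads, and the median log2 ratio of the 12477 genes with at least 1 FPKM in either library was 0.55. Of those genes 19.2% passed 2-fold upward in the knockout and 2.95% downward (2396 and 368 genes). After centring on that median the shares were 5.67% and 6.66% (708 and 831 genes), so counts of list genes are followed by the count once centred.

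Most p53 targets stood higher in the knockout liver, and by more than the general shift of the libraries, while the machinery genes followed that shift. Of the 24 genes of the p53 list, 15 were at least 2-fold higher and 0 were lower, beside 19.2% and 2.95% of all genes, and after centring 10 were higher and 2 lower. Of the 18 machinery genes, 3 were at least 2-fold higher, a share of 16.7% that lies near the 19.2% of all genes, and 1 was lower (0 and 2 once centred). The knockout value was the higher one for 38 of the 42 genes, beside 84.5% of all tested genes. Counted by intervals that lie wholly past 2-fold, 15 p53 list genes and 4 machinery genes were higher, beside 17.4% of all genes with reads, and 0 of either were lower, beside 1.99%. The median log2 ratio was 1.36 for the p53 list and 0.64 for the machinery, which is 0.80 and 0.09 above the median of all genes. The difference between the 2 medians was 0.71. By plain ratio 21 of 24 p53 list genes and 9 of 18 machinery genes lay above the median ratio of all genes, 1.62. Summed over the list, p53 list transcripts went from 130.5 to 440.6 FPKM and machinery transcripts from 125.9 to 214.1 FPKM. Of the p53 list 7 genes reached 1 FPKM in the knockout library alone and Eda2r in neither, so these counts take in genes that could only differ upward.

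**Figure D1:**
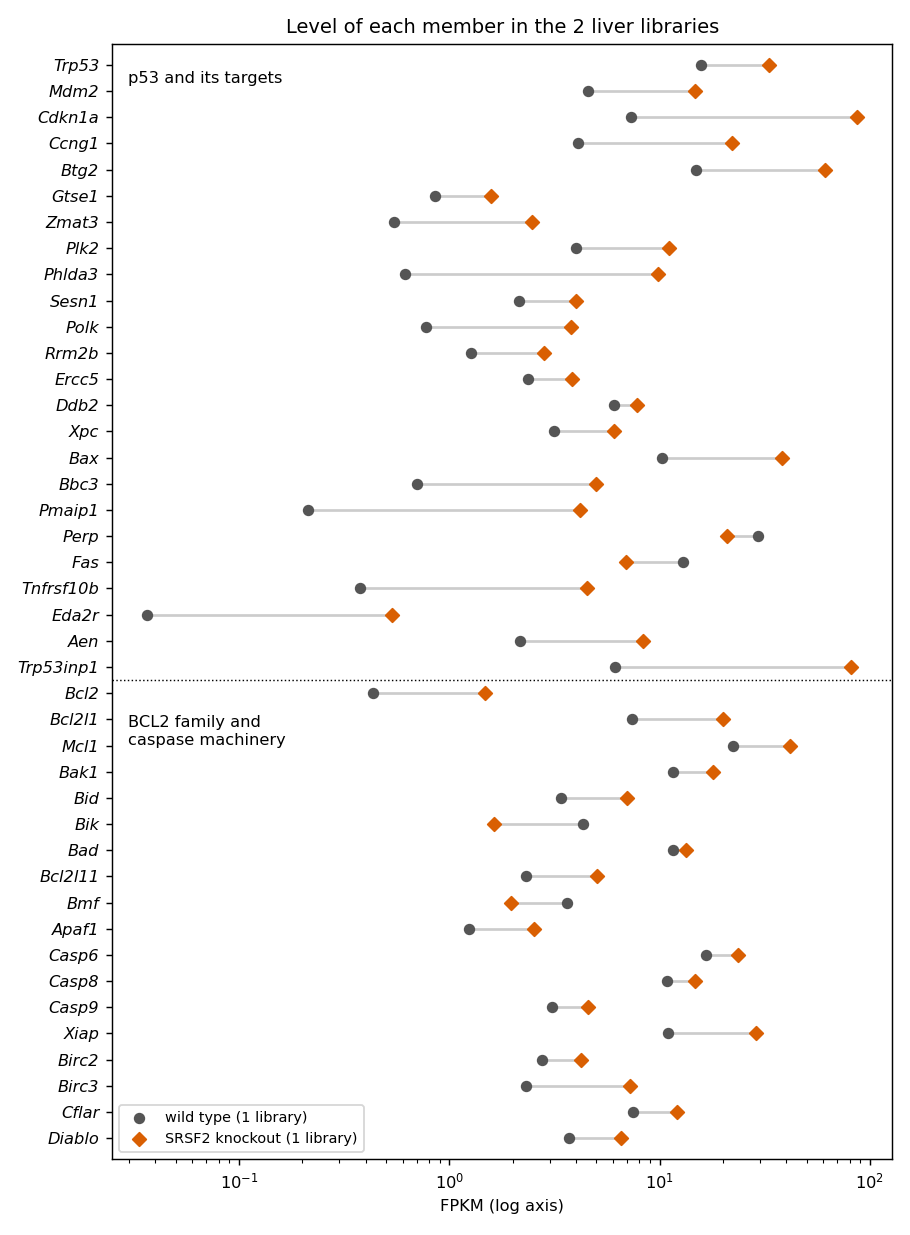
FPKM of each of the 42 genes on a log axis, with a grey circle for the wild-type and an orange diamond for the knockout library (1 library each, so no error bar). The knockout value lies to the right for 38 genes and to the left for 4, which are Perp, Fas, Bik and Bmf.

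Trp53 and its feedback inhibitor were both higher in the knockout library, by different amounts. Trp53 stood at 15.8 FPKM in wild-type and 33.2 FPKM in knockout liver, a ratio of 2.10 (1.94 to 2.27). Its log2 ratio of 1.02 just reaches the 2-fold rule and lies 0.47 above the median of all genes, at percentile 81.9 of those tested. Mdm2, which encodes the ligase that marks p53 for destruction and is itself a p53 target, stood at 4.55 and 14.7 FPKM, a ratio of 3.23 (2.87 to 3.64). The promoter stretches of both genes above hold the p53 element.

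Among the 8 genes of cell cycle arrest and growth control, 6 were at least 2-fold higher, beside 19.2% of all genes, and their median log2 ratio was 1.63. Once centred 4 remained past 2-fold, without Zmat3 and Plk2. Cdkn1a encodes p21, the inhibitor of cyclin-dependent kinases that carries out p53 arrest. Its level was 7.34 FPKM in wild-type and 86.8 FPKM in knockout liver, from 377 and 4403 reads, which made it the most abundant member in the knockout liver. Its ratio was 11.8 (10.6 to 13.2), at percentile 99.4 of all tested genes. In the search above it was the member with a full p53 site without mismatch. Ccng1, which encodes cyclin G1, stood at 4.09 and 22.1 FPKM, a ratio of 5.41 (4.85 to 6.05). Btg2, an antiproliferative gene, stood at 14.8 and 61.1 FPKM, a ratio of 4.12 (3.87 to 4.39). Cdkn1a, Ccng1 and Btg2 were already well above 1 FPKM in the wild-type liver, so the added 1 FPKM weighs little on them.

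The remaining arrest and growth genes started lower. Phlda3, which encodes a repressor of AKT signalling, had 24 reads or 0.617 FPKM in the wild-type library. It reached 9.78 FPKM in the knockout library, a ratio of 15.9 (10.5 to 25.1). Zmat3, an RNA-binding zinc finger gene, stood at 0.546 and 2.48 FPKM, a ratio of 4.53 (3.70 to 5.59). The polo-like kinase gene Plk2 stood at 3.996 and 11.1 FPKM, a ratio of 2.78 (2.43 to 3.19). Sesn1 and Gtse1 did not reach 2-fold. Sesn1 encodes sestrin 1, which restrains mTORC1, and stood at 2.14 and 4.02 FPKM, a ratio of 1.87 (1.56 to 2.26). Gtse1, which encodes a microtubule-associated protein of G2 and S phase that restrains p53, stood at 0.859 and 1.58 FPKM, and the interval of its ratio of 1.84 (1.34 to 2.56) holds the median ratio of all genes. Gtse1 carries a full site with 1 mismatch at its start, as Ccng1 does further upstream, and their ratios differed.

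The DNA repair targets moved less than the arrest genes. Of 5 genes 1 was at least 2-fold higher, and 0 after centring, beside 19.2% and 5.67% of all genes. The median log2 ratio of 0.75 lay 0.20 above that of all genes. Polk, the gene of the translesion polymerase kappa, stood at 0.776 and 3.81 FPKM, a ratio of 4.91 (3.89 to 6.26). Rrm2b, which encodes the p53-inducible subunit of ribonucleotide reductase, stood at 1.27 and 2.83 FPKM, and its ratio of 2.23 (1.84 to 2.71) fell under the rule through the added 1 FPKM. The other 3 are nucleotide excision repair genes, and none reached 2-fold. Xpc, which encodes a damage sensor of that pathway, stood at 3.16 and 6.06 FPKM. Ercc5, its 3′ endonuclease gene, stood at 2.37 and 3.84 FPKM. Ddb2, which encodes the damage-binding protein that recognises ultraviolet lesions, had the lowest ratio of the 5, with 6.07 and 7.84 FPKM and a ratio of 1.29 (1.12 to 1.502), under the median of all genes. Exons of Ddb2 overlap those of Acp2 on the opposite strand, and the sources used here do not say whether the counting used strand.

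The death genes of the p53 list held both the highest ratios and the lowest. Of 9 genes 6 were at least 2-fold higher and none was lower, beside 19.2% and 2.95% of all genes. Once centred 6 were higher and 2 lower, beside 5.67% and 6.66%. The log2 ratios of the 9 genes ran from -0.81 to 3.53. Trp53inp1, which encodes a stress protein that promotes p53 phosphorylation and autophagy, stood at 6.11 and 80.8 FPKM from 880 and 11508 reads. Its ratio of 13.2 (12.4 to 14.2) gave it the highest log2 ratio of the 42 genes, at percentile 99.5 of all tested genes. Bax, the pore former that permeabilises mitochondria, stood at 10.2 and 38.1 FPKM, a ratio of 3.72 (3.22 to 4.32). Aen, which encodes an apoptosis-enhancing nuclease, stood at 2.16 and 8.37 FPKM, a ratio of 3.87 (3.22 to 4.67). Bax and Aen each hold 1 p53 element in the stretches above.

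Of the other genes at least 2-fold higher in this group, 3 were under 1 FPKM in the wild-type liver. Bbc3 encodes the BH3-only protein PUMA and stood at 0.6996 and 4.97 FPKM, a ratio of 7.11 (5.15 to 10.03). Pmaip1 encodes the BH3-only protein NOXA, which binds MCL1, and stood at 0.213 and 4.20 FPKM, from 15 and 292 reads. Its ratio of 19.7 (11.7 to 35.7) was the highest plain ratio of the 42 genes, with a wide interval because of the few wild-type reads. Tnfrsf10b, the TRAIL receptor gene of the mouse, stood at 0.376 and 4.50 FPKM, a ratio of 11.95 (8.46 to 18.2). Eda2r, which encodes a member of the TNF receptor family, had 6 and 86 reads and stood at 0.0367 and 0.533 FPKM. It thus stayed under 1 FPKM in both libraries despite a ratio of 14.5 (6.40 to 40.6).

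Fas and Perp went the other way. Fas, which encodes the receptor of Fas ligand and triggers death of hepatocytes, stood at 12.9 FPKM in wild-type and 6.91 FPKM in knockout liver, 1.87-fold lower (1.61 to 2.17). Perp, an epithelial gene for a desmosomal membrane protein, had 29.3 and 20.99 FPKM, or a 1.40-fold lower level (1.29 to 1.51), and was the most abundant member in the wild-type liver. Neither reached 2-fold as deposited, and both were over 2-fold lower after centring. The death receptor genes Fas and Tnfrsf10b thus changed in opposite directions, and their sum was 13.3 FPKM in wild-type and 11.4 FPKM in knockout liver.

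**Figure D2:**
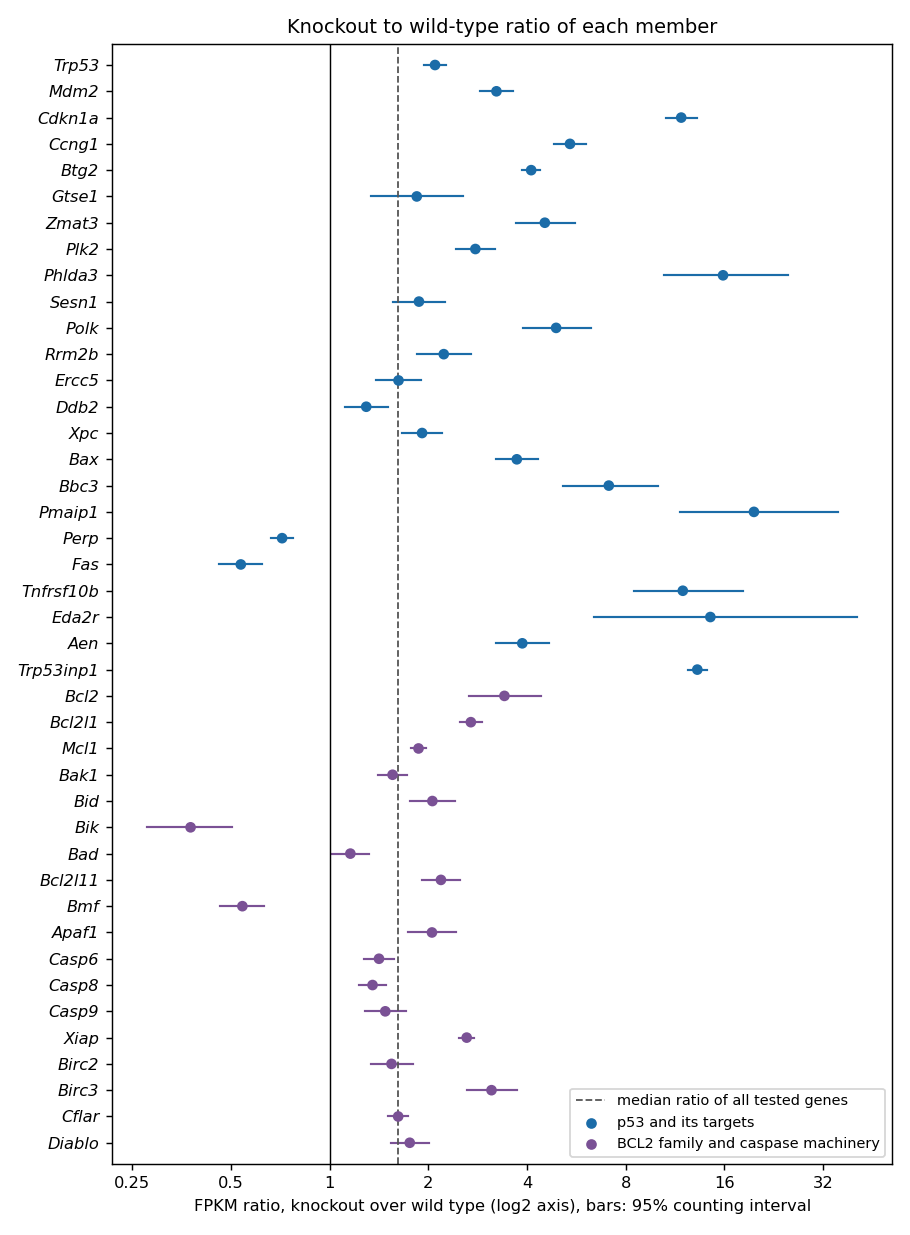
Ratio of knockout over wild-type FPKM for each gene on a log2 axis, with bars for the 95% counting interval, blue for p53 and its targets and purple for the machinery. The dashed line is the median ratio of all tested genes, 1.62, and the solid line is 1. Blue points spread up to 19.7 for Pmaip1, and most purple points lie close to the dashed line.

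Survival members of the BCL2 family were all higher by plain ratio. Bcl2l1 encodes BCL-XL, the main survival protein of hepatocytes together with MCL1, and stood at 7.41 and 19.98 FPKM, a ratio of 2.70 (2.49 to 2.92). The table gives 1 accession for Bcl2l1, so its long survival form and its short death form, which differ by splicing, were not told apart. Mcl1 was the most abundant machinery gene in both libraries, at 22.4 and 41.7 FPKM, and its ratio of 1.87 (1.77 to 1.97) was under 2-fold. Bcl2 was low, at 0.434 and 1.48 FPKM, with a ratio of 3.41 (2.66 to 4.42) that missed the rule on the log2(FPKM + 1) scale. Of these 3 genes 1 was at least 2-fold higher, and 0 after centring, beside 19.2% and 5.67% of all genes.

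The pore former BAK and the BH3-only genes outside the p53 list showed no common direction. Bak1, whose protein shares its role with BAX, stood at 11.5 and 17.9 FPKM, and its ratio of 1.56 (1.40 to 1.73) lay below the whole interval of Bax. Among the 5 BH3-only genes 0 were at least 2-fold higher and 1 was lower, beside 19.2% and 2.95% of all genes. Once centred 0 were higher and 2 lower (Bik and Bmf), beside 5.67% and 6.66%. Bik, a BH3-only gene whose protein acts at the endoplasmic reticulum, stood at 4.33 and 1.63 FPKM, 2.66-fold lower (1.98 to 3.60), just past the rule with a log2 ratio of -1.02. Bmf, which encodes a BH3-only protein tied to the cytoskeleton, stood at 3.62 and 1.96 FPKM, 1.85-fold lower (1.58 to 2.16). Its promoter stretch holds the p53 element. Bcl2l11, the gene of BIM, which binds all survival members, stood at 2.31 and 5.06 FPKM, a ratio of 2.19 (1.91 to 2.51). Bid, the substrate through which caspase-8 reaches mitochondria, stood at 3.40 and 6.99 FPKM, a ratio of 2.06 (1.76 to 2.41). Bad, which links growth factor signals to BCL-XL, was close to equal at 11.6 and 13.4 FPKM. The p53-list genes Bbc3 and Pmaip1 had ratios above the intervals of all 5.

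Summing FPKM over each arm of the family shows how these genes add up. Survival genes (Bcl2, Bcl2l1 and Mcl1) summed to 30.2 ± 0.547 FPKM in wild-type and 63.2 ± 0.790 FPKM in knockout liver, where ± is the standard error of counting. Pore formers (Bax and Bak1) summed to 21.8 ± 0.813 and 56.1 ± 1.42 FPKM. The 7 BH3-only genes, with Bbc3 and Pmaip1 included, summed to 26.1 ± 0.718 and 38.2 ± 0.829 FPKM. Set against the survival genes, pore former transcript went from 0.721 ± 0.0299 to 0.887 ± 0.0251, and BH3-only transcript from 0.865 ± 0.0285 to 0.604 ± 0.0151. A ratio between arms of 1 library is free of the general shift, and it counts transcripts, not active proteins.

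**Figure D3:**
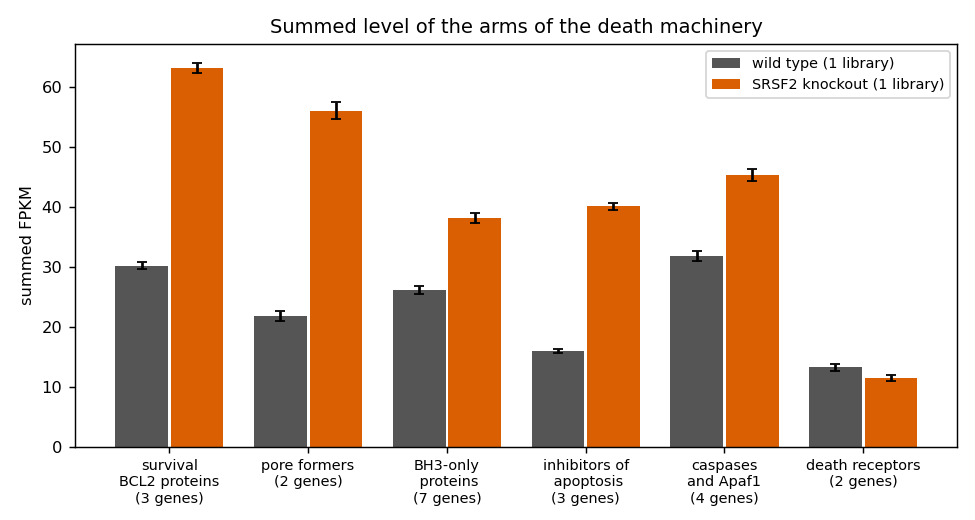
Summed FPKM of each arm of the death machinery in the wild-type (grey) and knockout (orange) library, with error bars for the standard error of counting and the y axis from 0. Every arm but the death receptors is higher in the knockout library, with the survival genes at 30.2 and 63.2 FPKM. The death receptors Fas and Tnfrsf10b are at 13.3 and 11.4 FPKM. The ratios of the BH3-only genes (1.46) and of Apaf1 with the caspases (1.42) lie under the median ratio of all genes, 1.62. Those of the survival genes (2.09), pore formers (2.58) and inhibitors of apoptosis (2.51) lie above it.

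Initiator and executioner caspase genes were among the steadiest members. Casp8, the initiator caspase of death receptors, stood at 10.9 and 14.7 FPKM, a ratio of 1.35 (1.23 to 1.49). Casp6, an executioner caspase, stood at 16.6 and 23.5 FPKM, a ratio of 1.41 (1.28 to 1.57). Casp9, the initiator that APAF1 activates, stood at 3.09 and 4.57 FPKM, a ratio of 1.48 (1.28 to 1.71). All 3 caspase ratios lay under the median ratio of all genes. Exons of Casp9 overlap by 94 bases those of Cela2a on the opposite strand, an exocrine pancreas gene with 111 and 3121 reads, and the part of this overlap in the Casp9 value was not tested. Exons of Bad, Bak1, Bid and Diablo also overlap a protein-coding gene of the opposite strand. Those of Bax and Diablo overlap a protein-coding gene of the same strand, by 192 and 1193 bases, and the part of this in their values was not tested. Apaf1, the scaffold of the apoptosome, stood at 1.24 and 2.54 FPKM, a ratio of 2.05 (1.74 to 2.43). On the log2(FPKM + 1) scale 0 of these 4 genes reached 2-fold in either direction, beside 19.2% of all genes upward and 2.95% downward.

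Among the inhibitors of caspases, Xiap and Birc3 had higher ratios than any of the 3 caspase genes, and Birc2 and Cflar were closer to them. Xiap, whose protein binds caspases 3, 7 and 9 directly, stood at 10.9 and 28.6 FPKM, a ratio of 2.62 (2.49 to 2.76). Birc3, which encodes the NF-κB-induced inhibitor cIAP2, stood at 2.32 and 7.24 FPKM, a ratio of 3.12 (2.62 to 3.72). Its neighbour and paralog Birc2, which encodes cIAP1, stood at 2.75 and 4.25 FPKM, a ratio of 1.54 (1.34 to 1.79), so that Birc3 passed Birc2 in level in the knockout library. Cflar, the gene of the caspase-8 inhibitor FLIP, stood at 7.47 and 12.1 FPKM, a ratio of 1.62 (1.51 to 1.73). Diablo, which encodes the mitochondrial antagonist of these inhibitors, stood at 3.72 and 6.53 FPKM. The inhibitor genes Xiap, Birc2 and Birc3 summed to 0.502 ± 0.0164 of the summed FPKM of Apaf1 and the 3 caspases in the wild-type library and to 0.884 ± 0.0220 in the knockout library.

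Xiap and Eda2r lie on the X chromosome, and the libraries also differed in sex-linked transcripts. Reads of Xist, which coats the inactive X chromosome, numbered 13004 in wild-type and 6 in knockout liver. The Y-linked genes Ddx3y, Kdm5d, Eif2s3y and Uty had 0 or 1 read in the wild-type library and 277 to 859 reads in the knockout library. Genotype and sex therefore cannot be told apart for any member. Without the 2 X-linked genes the p53 list still held 15 genes and the machinery 2 genes at least 2-fold higher.

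The wider pathway was described with 3 further lists. Of 46 other p53 pathway genes found, 20 were at least 2-fold higher and 1 was lower (8 and 2 once centred), and the median log2 ratio was 0.79. Over the 42 that passed the filter of 1 FPKM the share higher was 47.6%, beside 19.2% of all tested genes, and 6 of the 42 passed in the knockout library alone. Gdf15, a secreted stress hormone gene, stood at 1.08 and 25.5 FPKM, a ratio of 23.7 (17.2 to 33.6). Gadd45b, a growth arrest and DNA damage gene, stood at 3.42 and 33.4 FPKM. Ddit4, which encodes the mTORC1 inhibitor REDD1, stood at 4.92 and 30.8 FPKM, and Ephx1, a detoxifying epoxide hydrolase gene and the most abundant of the list, at 35.1 and 341 FPKM. Each of these 4 is also known to respond to stress pathways other than p53. The 1 gene lower was Steap3, a ferrireductase gene named after its values were seen, at 10.4 and 3.94 FPKM.

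Of 44 other apoptosis genes, 10 were at least 2-fold higher and 0 were lower (4 and 2 once centred). Their median log2 ratio was 0.52 with genes under the filter included, beside 0.55 for all tested genes. Over the 37 that passed the filter the share higher was 27.0%, beside 19.2%, and 8 of the 37 passed in the knockout library alone. The largest log2 ratios were those of Bcl2a1b, at 1.54 and 14.3 FPKM, Bcl2l14, at 0.0509 and 3.26 FPKM, Bcl2a1a, at 0.497 and 3.50 FPKM, and Bcl2a1d, at 0.0605 and 2.12 FPKM. The Bcl2a1 genes encode survival proteins of blood cells and are near-identical copies, so the split of reads among them is uncertain. The most abundant gene of the list was Bnip3, a mitophagy receptor gene induced by hypoxia, at 77.8 and 88.2 FPKM.

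Genes that sense DNA damage and repair it had a lower median than the p53 targets. Of 33 found, 4 were at least 2-fold higher and 0 were lower (1 and 1 once centred), and the median log2 ratio was 0.34. Over the 28 that passed the filter the share higher was 14.3%, near the 19.2% of all tested genes. Ercc1, a subunit of an excision repair nuclease, stood at 2.61 and 13.7 FPKM, a ratio of 5.24 (4.15 to 6.68). Ogg1, the glycosylase gene for oxidised guanine, stood at 1.39 and 4.40 FPKM. The checkpoint clamp gene Rad9a, with 9.32 and 19.7 FPKM, and the clamp loader gene Rad17, with 3.18 and 7.39 FPKM, were just past 2-fold. Ddb1, the partner of Ddb2 and the most abundant gene of the list, stood at 39.0 and 57.2 FPKM.

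**Figure D4:**
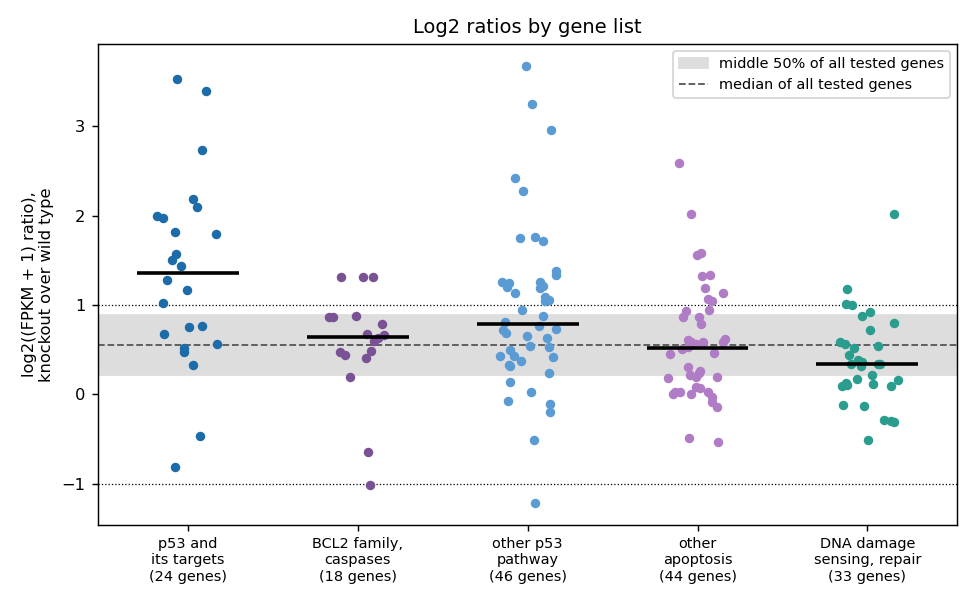
Log2((FPKM + 1) ratio) of every gene found of 5 lists, 1 point per gene, with a black bar for the list median, a dashed line for the median of all tested genes (0.55), a grey band for their middle 50% and dotted lines at 2-fold. The p53 list has its median at 1.36, above the band. The medians of the other lists, from 0.34 to 0.79, lie within the band, which ends at 0.89. List medians take in genes under the filter of 1 FPKM, which the band leaves out. The place of a median near the edge of the band therefore depends on these genes.

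Markers of several cell types also differed between the libraries, and in bulk tissue fewer cells of a type and less RNA per cell cannot be told apart. All 10 hepatocyte markers had reads in both libraries, among them Alb at 50399 and 25492 FPKM. Of these 10 markers 4 were at least 2-fold lower and 1 higher, beside 2.95% and 19.2% of all genes. Once centred 7 were lower and 1 higher, beside 6.66% and 5.67%. The summed level of the hepatocyte markers went from 82684 to 40422 FPKM. Stellate and matrix genes had 6 of 9 at least 2-fold higher (2 once centred), beside 19.2% of all genes, and summed to 171.0 and 482 FPKM. Biliary genes had 4 of 9 higher (2 once centred), beside the same 19.2% of all genes, and summed to 43.5 and 112 FPKM. Macrophage genes had 2 of 7 higher (0 once centred), near the share of all genes, and summed to 212 and 473 FPKM. Exocrine pancreas and skeletal muscle markers were at or near 0 reads in the wild-type library, with 14 and 5 reads in all. They summed to 566 and 86.2 FPKM in the knockout library. In each list 6 of 7 were at least 2-fold higher, also once centred, beside 19.2% and 5.67% of all genes. The pancreas genes Pnlip and Cel and the muscle genes Acta1, Myh4, Tnnc2 and Myl1 had 0 wild-type reads. Neutrophil genes had 3 of 7 at least 2-fold lower (7 once centred), beside 2.95% of all genes, and summed to 218 and 112 FPKM. Erythroid genes had 0 of 7 past 2-fold (2 lower once centred) and summed to 418 and 239 FPKM, and in this list Hbb-b1 was listed at 0 in both libraries. Lymphocyte genes had 1 of 11 higher and 0 lower (0 and 2 once centred), beside 19.2% and 2.95% of all genes. They summed to 15.3 FPKM in both libraries. Of 7 endothelial genes 0 passed 2-fold on either scale (113 and 133 FPKM). The part of these cell types in the values of the p53 and apoptosis genes was not tested.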

How the data were processed

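Per the labels' protocols, frozen liver was extracted with Trizol and sequenced after standard Illumina preparation. The submitters' processing notes name Bowtie 0.12.2 and build mm9. The sources used here do not give the counting program, annotation, use of strand or treatment of reads with several matches. Per the file headers, each deposited table pairs RefSeq accessions with the authors' read count and the FPKM that the authors derived from it. Of 26449 accessions 23419 were named through RefSeq tables of GRCm38.p6 and GENCODE, used for names, neighbours and promoter sequence only. Reads and FPKM were summed per gene. The FPKM worth of 1 read differed between tables by a factor of 1.01, which scales the intervals.

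With 1 library per genotype no p-value was computed. Size was log2((knockout FPKM + 1) / (wild-type FPKM + 1)), counted at 2-fold among genes with at least 1 FPKM in either library. All members are named. Of each wider list, the 4 genes with the largest absolute log2(FPKM + 1) ratio, among those past the filter, and the most abundant gene are named. Members and lists were chosen with earlier results of these data known. Of the listed genes, Cd68, Csf1r, Ercc6 and Tnfrsf10c had no matching accession name and are not analysed here. The calculation was tested on simulated libraries. Alternatives were other pseudocounts, filters, scalings, size rules and list borders. Counts by the interval of the read ratio, and counts without X-linked members, were chosen after seeing the data. The scripts ran in Python 3.11.15 with scipy 1.17.1, pandas 2.3.3, matplotlib 3.10.9 and numpy 2.4.6.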

Additional observations from a re-analysis of the deposited data

How the results depend on the processing

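The p53 list kept a higher median than the machinery list under every alternative run, by 0.41 (log2) with a pseudocount of 5 to 1.15 with a pseudocount of 0.1. Centring, dropping the filter and choosing among entries of a gene could not change this difference. They leave it at 0.71 by construction and say nothing about how firm it is. Scaling to a common sum, and rescaling without the 20 most abundant genes, multiply all values of a library by 1 factor. Such a factor cancels between the lists except through the added 1 FPKM. The differences of 0.71 and 0.74 under these scalings therefore say little more. The counts depended more on the settings. With a pseudocount of 0.1, 6 machinery genes and 3797 of all genes were at least 2-fold higher, and the p53 list median was 1.896. With a pseudocount of 5, 7 p53 list genes were higher and 0 machinery genes lower, 786 of all genes were higher and 232 lower, and the medians were 0.81 for the p53 list, 0.40 for the machinery and 0.30 for all genes. Without a filter the median of all genes was 0.32, and with a filter of 5 FPKM 0 machinery genes were lower. After centring, 2 p53 list genes were lower, 0 machinery genes higher and 2 lower, 708 of all genes higher and 831 lower, with medians of 0.80 for the p53 list, 0.091 for the machinery and 0 for all genes. Rescaled without the 20 most abundant genes, 1 p53 list gene was lower, 1297 of all genes were higher and 565 lower, and the medians were 1.10, 0.36 and 0.29. With Bax, Bbc3 and Pmaip1 moved to the BCL2 family, 6 machinery genes were higher. At 1.5-fold, 1 p53 list gene was lower, 11 machinery genes were higher and 2 lower, and 5914 of all genes were higher and 687 lower. At 4-fold, 5 p53 list genes and 0 machinery genes were higher, 0 machinery genes were lower, and 344 of all genes were higher and 94 lower. Counted by the interval of the read ratio, 0 machinery genes were lower. The causes were not tested beyond what each setting does by construction. The plain ratio of all 42 genes stayed within its counting interval when taken as a share of the table's reads. Low wild-type counts (6 reads for Eda2r, 15 for Pmaip1) limit the precision of the largest ratios.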

Other observations

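Taken over all genes, those with and without the p53 element in the promoter window had similar shares of higher knockout levels. Of 775 tested genes with the element 18.2% were at least 2-fold higher, with a median log2 ratio of 0.51. Of 8663 tested genes without it 18.5% were at least 2-fold higher, with a median of 0.55. Of the 54 tested genes with a full site 14 were at least 2-fold higher (25.9%), Cdkn1a and Ccng1 among them, 5.56% were at least 2-fold lower, and the median was 0.47. The shares at least 2-fold lower were 2.97% with and 2.71% without the element. These shares are descriptions of 2 libraries and of letters from 250 bases before to 50 bases after a start site.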
